A study of Arabidopsis thaliana with 6 samples.

Results

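The leaf transcriptome of the Arabidopsis thaliana triple mutant idn2-1 idnl1-1 idnl2-1 was compared with that of wild type (WT) over every gene measured, 32947 of 32947. The triple mutant is 1 library and WT is 2, out of 6 libraries in the series. All of them come from ecotype Columbia-0, from leaves that were 3 weeks old on plants kept in constant light, and each was prepared for mRNA sequencing on the Illumina TruSeq chemistry. The other mutants, used here only for values beside the comparison, were the double mutant idnl1-1 idnl2-1, an idn2 mutant and nrpe1-11, with 1 library each. No transgene or treatment is named in the labels. The triple mutant is represented by 1 combination of alleles, and the labels do not say how many plants were pooled or whether the WT libraries came from separate plants, so the p-values rest on a spread between WT libraries that could be technical alone.

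RNA-directed DNA methylation (RdDM) is the plant pathway in which small RNAs lead a DNA methyltransferase to transposons and to some gene promoters. Small RNAs bound by an Argonaute protein pair with transcripts of RNA polymerase V, and IDN2 acts at this later step. IDN2 is a protein that binds double-stranded RNA and works in a complex with IDNL1 or IDNL2, which belong to its own family and are also called FDM1 and FDM2. Genes known for this control include some that are silenced by promoter methylation and also ROS1, a DNA demethylase gene whose mRNA is known to be low in RdDM mutants. The comparison asked which mRNAs differ when IDN2 and both relatives are mutated together.

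The deposited unit is RPKM, a read density that accounts for gene length and library size, and reads were recovered from the steps of these values. The triple mutant library held 2793873 reads, against 2737943 in WT replicate 1 and 5975802 in WT replicate 2. WT replicate 1 was therefore the control of matched depth, and replicate 2 the deeper second control. The triple mutant and WT replicate 1 lay level over the whole range of abundance, with medians of log2(RPKM + 1) that differed by -0.03 to 0.02 in each decile of genes by abundance. Against WT replicate 2 the median difference was -0.35 in decile 4, counted from the lowest, and 0.25 in the highest. WT replicate 2 itself differed from replicate 1 by 0.32 and -0.21 in the same deciles, so that pattern lies between the WT libraries too. The leaf markers were strong in all 3 libraries. RBCS1A, a small subunit of Rubisco, had 278 RPKM in the triple mutant, against 285 and 148 in WT. Depth, library batch and duplicate handling cannot be told apart in the difference between the WT libraries.

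**Figure D1:**
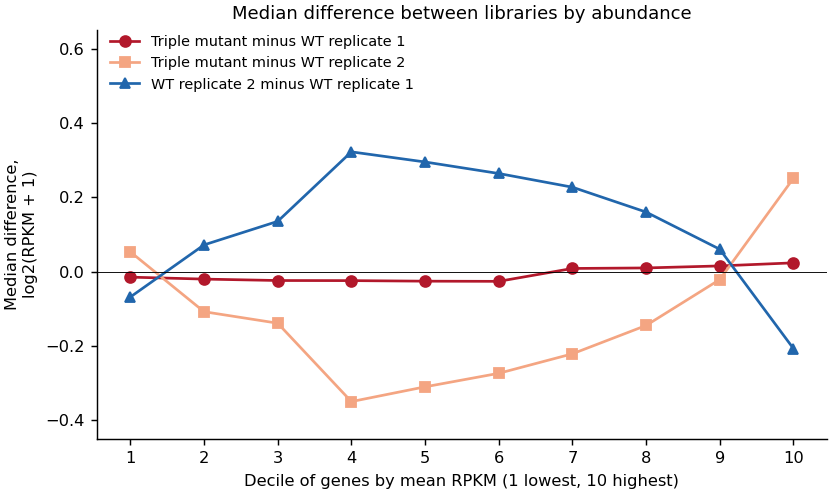
Median difference between libraries on the log2(RPKM + 1) scale (vertical axis) in each decile of the tested genes ranked by mean RPKM (horizontal axis). The triple mutant minus WT replicate 1 stays between -0.03 and 0.02, while both lines that involve WT replicate 2 depart from 0 in opposite directions.

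The mutated genes were examined first. IDNL1 (AT1G15910, chromosome 1, 5465330 to 5469119 in TAIR8) had 0.187 RPKM in the triple mutant, against 4.86 and 6.37 RPKM in WT. These levels rest on 1 read in the triple mutant, against 50 and 144 reads in WT. The single triple mutant read put IDNL1 far below both WT libraries, a ratio of reads per total of 0.0196 (95% interval 0.000487 to 0.114) to WT replicate 1. IDNL2 (AT4G00380, chromosome 4, 167959 to 170974) had 5 reads in the triple mutant, against 14 and 46 in WT. It lay below each WT library, but the difference passed the exact binomial test against WT replicate 2 (adjusted p = 0.00351) and not against replicate 1 (adjusted p = 0.426), nor limma (adjusted p = 1). IDN2 (AT3G48670, chromosome 3, 18041766 to 18045050) stood at 14.8 RPKM in the triple mutant, against 18.0 and 17.1 RPKM in WT. Its reads, 136 in the triple mutant against 163 and 337 in WT, gave a ratio of 0.818 (0.646 to 1.03) to replicate 1. IDNL1 was thus nearly absent from the library labelled triple mutant, while no difference in IDN2 was detectable at this depth. Reads over the whole gene do not show whether the idn2-1 transcript is intact. Of the other family members, SGS3, which works in trans-acting small RNA production, changed by -0.41 and FDM3, FDM4 and FDM5 by -0.48, -0.15 and -0.12 on the log2(RPKM + 1) scale, and none of the 4 passed limma.

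Few genes changed in the triple mutant, and more of them fell than rose. The rises were led by MRD1 and the overlapping HEI10 and by 2 pseudogenes with few reads in WT. The falls were led by AT5G22430, ROS1, AT4G26290 and IDNL1, and they also held 4 sugar-starvation genes, of which DIN10 fell furthest. By limma on log2(RPKM + 1), 16 genes rose and 51 fell at a Benjamini-Hochberg adjusted p under 0.05, which is 0.3% of the 22362 genes that reached 1 RPKM in any library (0.0715% higher and 0.228% lower), and 759 had an unadjusted p under 0.05. By a rule of size alone, 159 genes (0.711%) lay 2-fold or more outside both WT libraries on the RPKM + 1 scale, 26 higher (0.116%) and 133 lower (0.595%). All 16 limma rises lay above both WT libraries and all 51 falls below both. The only residual degree of freedom is that of the WT pair, each gene's spread was taken from the trend over all genes, and 7 of the 67 calls rest on fewer than 10 reads in the triple mutant and WT replicate 1 together. Median-of-ratios scaling gave 339 calls, 106 higher and 233 lower, and moved the median of all genes by 0.0994 on the log2 scale.

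MRD1 rose further than any other gene by limma. MRD1 (AT1G53480, chromosome 1, 19966882 to 19968380), a small gene known for silencing by DNA methylation, had 15.1 RPKM in the triple mutant, against 0.482 and 0.111 RPKM in WT. Both WT levels are under 1 RPKM, so MRD1 entered the fit through mutant libraries. Its limma call was kept with no filter on low values. The triple mutant held 63 reads of MRD1, against 1 and 0 reads in WT. It rose by 3.65 on the log2(RPKM + 1) scale (SE 0.60, limma adjusted p = 2.15e-06), with a ratio of 61.7 (10.7 to 2477) to WT replicate 1 and at least 44.9-fold higher than WT replicate 2 against a floor of 3 reads. HEI10 (AT1G53490, chromosome 1, 19966935 to 19970620), whose protein promotes meiotic crossovers, had 81 reads in the triple mutant, against 5 and 19 in WT. Its 7.87 RPKM in the triple mutant, against 0.588 and 0.903 RPKM in WT, was a rise of 2.35 (SE 0.59, limma adjusted p = 0.0304). Both WT levels are under 1 RPKM, so HEI10 entered the fit through mutant libraries, and with no filter on low values its limma adjusted p = 0.165. The 2 genes share 1446 bases, which is nearly all of MRD1. How reads of each strand were counted is not stated, so the reads of the 2 genes cannot be told apart here. Of 4 tested genes on the meiotic list HEI10 was the 1 called, against 0.3% of all genes tested. HEI10 was among the 4 only through mutant libraries, and with no filter 0 of 13 genes on the list were called. The count therefore says nothing about meiotic genes as a group.

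Both pseudogenes among the rises had 5 reads or fewer in each WT library. AT5G35935 (chromosome 5, 14100618 to 14107121) had 85 reads in the triple mutant, against 3 and 2 in WT. That is 4.68 RPKM in the triple mutant, against 0.222 and 0.0768 RPKM in WT, a rise of 2.31 (SE 0.58, limma adjusted p = 0.0285) and a read ratio of 27.8 (9.18 to 137) to replicate 1 and 90.9 (24.4 to 763) to replicate 2. It too entered the fit through mutant libraries, and its limma adjusted p = 0.254 with no filter and 0.126 with pseudocount 5. AT2G04460 (chromosome 2, 1547685 to 1548254) had 20 reads in the triple mutant, against 3 and 5 in WT. Its level of 13.1 RPKM in the triple mutant, against 2.54 and 1.75 RPKM in WT, was a rise of 2.17 (SE 0.56, limma adjusted p = 0.0372). The annotation's class of pseudogenes also holds transposable element genes, and reads may be shared among copies of such sequences.

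The other rises were smaller. AT3G09870, of the SAUR family of small auxin-responsive proteins, had 39.8 RPKM in the triple mutant, against 11.5 and 18.7 RPKM in WT, and rose by 1.38 (SE 0.32, limma adjusted p = 0.00931). AT4G12490, of the lipid-transfer protein superfamily, had 23.4 RPKM in the triple mutant, against 7.36 and 10.4 RPKM in WT (1.32, limma adjusted p = 0.00183). AT4G22513, of the same superfamily, had 33 reads in the triple mutant, against 14 and 29 in WT, and its span overlaps AT4G22510 (1.13, limma adjusted p = 0.0254). For each of these the triple mutant library lay above both WT libraries in RPKM. AT3G14395, of unknown function and overlapping AT3G14400, had 144 reads in the triple mutant, against 67 and 154 in WT, which is 2.11- and 2.0-fold higher per total. AT4G27657, also uncharacterized, had 39.7 RPKM in the triple mutant, against 11.5 and 21.2 RPKM in WT (1.29, limma adjusted p = 8.5e-06); it was chosen after its values were seen. So were AT2G12461 and AT4G31441, also uncharacterized. AT2G12461 had 21 reads in the triple mutant, against 12 and 18 in WT (0.99, limma adjusted p = 0.00331), and AT4G31441 had 9 against 2 and 10 (1.25, limma adjusted p = 0.00719). Neither AT2G12461 nor AT4G31441 was called against both WT libraries by the read tests. Each rise named so far in this paragraph lost its limma call with voom. A further 3 rises were of small RNA genes on almost no reads. The tRNA gene AT5G61835 had 2 reads in the triple mutant, against 0 and 2 in WT. The snoRNA genes AT2G05765 and AT3G47347 had 3 and 2 reads in the triple mutant, against 0 and 0 in WT replicate 1 and 3 and 1 in WT replicate 2. The 95% intervals of all 3 ratios to WT replicate 1 include 1, and none of the 3 reached the 10 reads that the read test asks for.

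**Figure D2:**
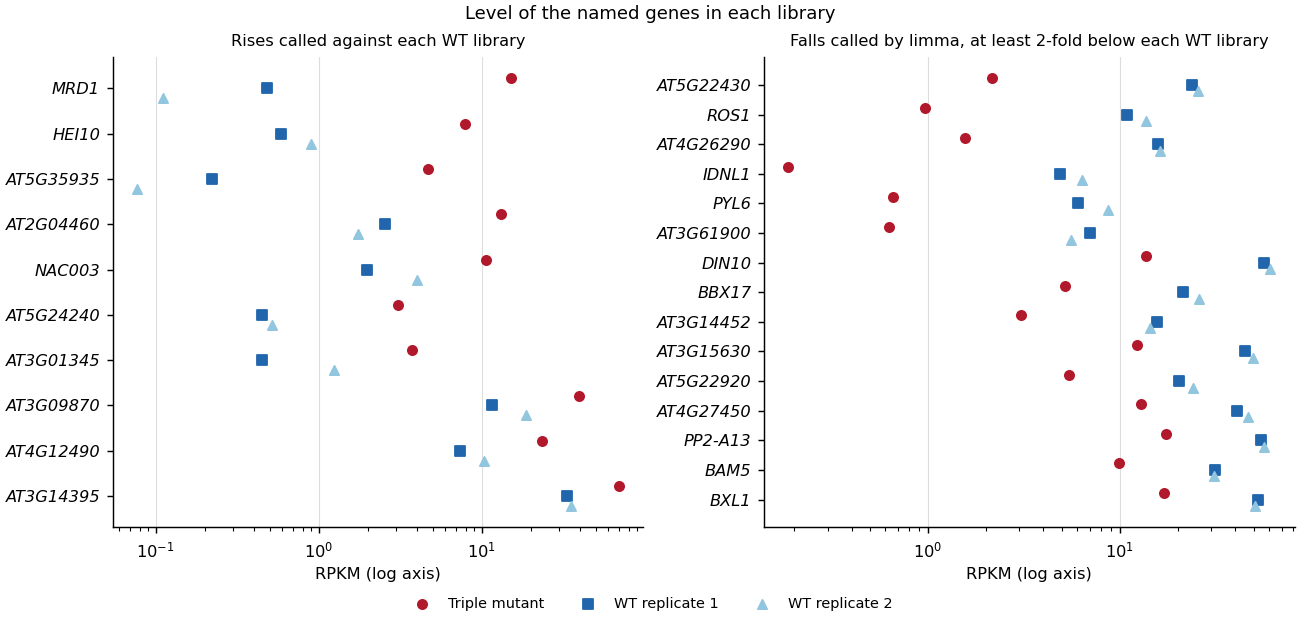
RPKM of each named gene (horizontal log axis) in the triple mutant (circles), WT replicate 1 (squares) and WT replicate 2 (triangles). Left, the 10 rises called against each WT library, with the triple mutant to the right of both WT points in every row; right, the 15 falls that passed limma and lay at least 2-fold below each WT library on the RPKM + 1 scale, with the triple mutant to the left of both. The RPKM include the 1 read that the deposited values add to every gene, so a point is drawn also where a library had 0 reads.

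ROS1 had the second deepest fall by limma. ROS1 (AT2G36490, chromosome 2, 15315100 to 15321351), whose protein removes methylated cytosine, had 0.962 RPKM in the triple mutant, against 10.9 and 13.7 RPKM in WT. The triple mutant held 16 reads of it, against 188 and 514 reads in WT. Reads per total were 12-fold lower than in replicate 1 and 15-fold lower than in replicate 2, and the fall by 2.75 passed limma (SE 0.60, adjusted p = 0.00284). Of 8 tested demethylation genes ROS1 was the 1 called, against 0.3% of all genes tested. The list was chosen with earlier results of these data known. The ROS1 paralogue DML2 had 39 reads in the triple mutant, against 57 and 156 in WT, DML3 had 26 against 23 and 91, and DME had 191 against 188 and 500. None of these 3 reached 2-fold against either WT library. MBD7, nearest the list's median of -0.20, had 43 reads in the triple mutant, against 43 and 125 in WT.

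AT5G22430 had the deepest fall by limma. This gene (chromosome 5, 7433793 to 7434938) encodes a protein of the pollen Ole e 1 and extensin family and had 2.16 RPKM in the triple mutant, against 24 and 26 RPKM in WT. Its 6 reads in the triple mutant, against 74 and 175 in WT, were 12.6- and 13.6-fold lower per total, and it fell by 3.02 (SE 0.37, limma adjusted p = 3.03e-12). The WT libraries were close to each other here, at both depths. AT4G26290, an uncharacterized gene that overlaps AT4G26288, had 0 reads in the triple mutant, against 9 and 21 in WT. It fell by 2.73 (limma adjusted p = 3.63e-11), and was at least 3.06- and 3.27-fold lower than the 2 WT libraries against the floor of 3 reads. AT3G61900, a further SAUR gene, had 0 reads in the triple mutant, against 10 and 18 in WT (-2.16, limma adjusted p = 0.0438). AT3G14452, uncharacterized, had 0 reads in the triple mutant, against 4 and 9 in WT, too few for the read tests, although limma called it (-1.98, adjusted p = 0.000511).

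The sugar-starvation list held more falls than any other list. Its genes are switched on in darkness or carbon shortage, when the kinase SnRK1 is active. Of 17 tested members of the list of 18, 4 fell and 0 rose by limma, against 0.228% of all genes tested that fell. They were DIN10, TPS11, BT2 and TPS8. The count of falls was 3 with pseudocount 0.5 or at least 5 RPKM, and 9 with median-of-ratios scaling. Of 15 members that both read tests covered, 6 fell and 0 rose against each WT library, which added SEN1 and AKINBETA1. Of all 18466 genes in both read tests 0.384% fell. The median change of the list was -0.81, against -0.05 over all genes tested, and 14 of 17 members lay below both WT libraries (82.4%), against 39.2% of all genes tested. The list's median was -0.69 against WT replicate 1 alone and -0.88 against replicate 2 alone. With members chosen when results of these data were known, these counts describe the list and do not test it.

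DIN10, a raffinose synthase family gene named for its induction in the dark, had 13.6 RPKM in the triple mutant, against 56.4 and 61.0 RPKM in WT. Its 119 reads in the triple mutant, against 485 and 1138 in WT, gave a ratio of 0.240 (0.195 to 0.294) to replicate 1, and the fall by 2.03 had the smallest p of the named genes (SE 0.23, limma adjusted p = 3.04e-14). TPS11 and TPS8 belong to the trehalose-phosphate synthase family, which is tied to sugar signalling. TPS11 had 41.0 RPKM in the triple mutant, against 98.0 and 101 RPKM in WT, and fell by 1.26 (SE 0.23, limma adjusted p = 4.38e-05). TPS8 had 38.3 RPKM in the triple mutant, against 77.1 and 78.1 RPKM in WT, and fell by 1.00 (SE 0.22, limma adjusted p = 0.00284). BT2, a BTB and TAZ domain protein that responds to sugar and nitrogen, had 22.9 RPKM in the triple mutant, against 56.3 and 55.6 RPKM in WT (-1.25, limma adjusted p = 0.0475). In all 4 genes the WT libraries lay close together, and reads per total in the triple mutant were more than 2-fold below each of them. SEN1, a senescence-associated gene, had 2 reads in the triple mutant, against 16 and 59 in WT, and passed the exact binomial test against each (adjusted p = 0.0346 and 1.13e-06) but not limma (adjusted p = 0.134). AKINBETA1, a subunit of SnRK1, had 69 reads in the triple mutant, against 146 and 345 in WT (exact binomial adjusted p = 1.68e-05 and 1.2e-10; limma adjusted p = 0.188). TPS10, nearest the list's median, had 10.6 RPKM in the triple mutant, against 18.4 and 20.4 RPKM in WT, and did not pass limma. ASN1, the asparagine synthetase gene often used as the marker of this response, had 3 reads in the triple mutant, against 4 and 22 in WT, which is too low to read. BZIP2 and DIN9 lay level, with 129 RPKM in the triple mutant, against 134 and 106 RPKM in WT for BZIP2, and 9.29 RPKM, against 8.76 and 9.94 RPKM, for DIN9.

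Falls were also found in genes that are on no list. BXL1, a beta-xylosidase, had 17 RPKM in the triple mutant, against 52.3 and 50.8 RPKM in WT, and its 233 reads in the triple mutant, against 704 and 1482 in WT, are the most of the 15 falls named by limma and the size rule (-1.54, SE 0.22, limma adjusted p = 6.86e-09). BAM5, a beta-amylase, had 9.94 RPKM in the triple mutant, against 31.3 and 30.9 RPKM in WT (-1.55, limma adjusted p = 0.000743). STP1, a monosaccharide transporter chosen after its values were seen, had 27.0 RPKM in the triple mutant, against 62.1 and 63.1 RPKM in WT (-1.18, limma adjusted p = 7.75e-05). PP2-A13, a phloem-protein-like lectin, had 17.4 RPKM in the triple mutant, against 54.3 and 56.7 RPKM in WT (-1.61). AT4G27450, of a family named for induction by aluminium, had 12.9 RPKM in the triple mutant, against 40.9 and 46.3 RPKM in WT (-1.68). AT5G22920, a CHY and RING zinc finger protein, had 5.44 RPKM in the triple mutant, against 20.3 and 24.2 RPKM in WT (-1.85). AT3G15630, of unknown function, had 12.2 RPKM in the triple mutant, against 45.1 and 49.6 RPKM in WT (-1.87). Each of the 4 passed limma, with adjusted p from 3.03e-12 to 0.000902, and each had a WT pair that differed by far less than its distance to the triple mutant.

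Single hormone genes passed the tests, while 0.228% of all genes tested fell by limma. The hormone lists were chosen with earlier results of these data known. PYL6, an abscisic acid receptor, had 1 read in the triple mutant, against 17 and 55 in WT, and was the 1 of 19 abscisic acid genes that fell (-2.32, SE 0.60, limma adjusted p = 0.0379). The list's median was -0.12, and its nearest member, the receptor PYL1, had 62.9 RPKM in the triple mutant, against 66.6 and 70.0 RPKM in WT. Among 17 jasmonate genes VSP1, a vegetative storage protein, fell by limma, with 31.1 RPKM in the triple mutant, against 70.8 and 63.2 RPKM in WT (-1.08, SE 0.22, adjusted p = 0.000816). The jasmonate repressor JAZ7 had 7 reads in the triple mutant, against 27 and 64 in WT, which passed the exact binomial test against each WT library (adjusted p = 0.0264 and 0.000255) and not limma (adjusted p = 0.542). JAZ1 lay nearest the list's median of -0.16, with 26.4 RPKM in the triple mutant, between the 24.6 and 35.8 RPKM of WT.

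B-box zinc finger genes moved in both directions. By limma 3 of the 19 were called, against 0.3% of all genes tested, in a list chosen with earlier results known. B-box proteins are transcription factors and co-factors that act in light signalling and flowering. BBX17 had 5.20 RPKM in the triple mutant, against 21.2 and 25.8 RPKM in WT, and fell by 1.98 (SE 0.35, limma adjusted p = 4e-05). BBX31 had 42.8 RPKM in the triple mutant, against 19.2 and 25 RPKM in WT, and rose by 0.93 (SE 0.22, limma adjusted p = 0.00882). BBX29 had 27.9 RPKM in the triple mutant, against 14.2 and 15 RPKM in WT, and rose by 0.89 (SE 0.22, limma adjusted p = 0.0304). BBX31 and BBX29 did not reach 2-fold against both WT libraries in reads. The read tests thus called BBX17 alone of the 18 tested there, against 0.439% of 18466 genes. The median of the 19 genes was 0.13, with BBX25 nearest to it, and 11 of 19 lay above both WT libraries (57.9%), against 19% of all genes tested.

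The read tests, which need no estimate of spread, compare libraries and not genotypes. Against WT replicate 1, of matched depth, the triple mutant was higher in 30 genes (0.162%) and lower in 75 (0.406%), together 0.568% of 18470 genes. Against WT replicate 2 it was higher in 20 (0.103%) and lower in 600 (3.09%), together 3.19% of 19445 genes. The WT libraries themselves differed by this test in 221 of 19483 genes (1.13%), with 218 higher in replicate 2 (1.12%) and 3 lower (0.0154%). Of the 75 falls against replicate 1, 71 were also called against replicate 2, and all 75 lay below it in reads per total. Of the 30 rises against replicate 1, 10 were also called against replicate 2 and 29 lay above it, while 9 of the 30 were also called higher in WT replicate 2 than in replicate 1. Most of the rises against replicate 1 therefore lack a call against replicate 2. Called against each WT library were 81 of 18466 genes (0.439%), 10 higher (0.0542%) and 71 lower (0.384%), and the tests share the triple mutant library. Median-of-ratios scaling gave 121 higher and 273 lower against WT replicate 2.

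Of these 81 genes 38 were also called by limma, 7 higher and 31 lower. The 3 rises that limma did not call were NAC003, AT5G24240 and AT3G01345. NAC003, a NAC transcription factor, had 54 reads in the triple mutant, against 9 and 43 in WT (ratios of 5.88 and 2.69; limma adjusted p = 0.277). AT5G24240, annotated as a phosphatidylinositol kinase and overlapping 2 neighbours, had 27 reads in the triple mutant, against 3 and 9 in WT. AT3G01345, uncharacterized, had 16 reads in the triple mutant, against 1 and 11 in WT. Among the 40 falls that limma did not call, the lipase genes AT2G42990 and RXF26 of the GDSL family had 1 read each in the triple mutant, against 15 and 14 in WT replicate 1 and 61 and 62 in WT replicate 2. AT5G38780, a methyltransferase family gene, had 3 reads in the triple mutant, against 24 and 51 in WT. AT4G16745, of the exostosin family of glycosyltransferases, had 4 reads in the triple mutant, against 21 and 60 in WT. The cytochrome P450 gene AT2G12190 and the RING finger gene AT1G02610 had 1 read each in the triple mutant, against 13 each in WT replicate 1. AT4G04745, uncharacterized, had 2 reads in the triple mutant, against 17 and 30 in WT, and AT4G14370, a disease resistance gene of the TIR-NBS-LRR class, had 2 against 17 and 50. AT4G14370 stayed under 1 RPKM in all 6 libraries and so was not in the limma fit. AGO3, an Argonaute gene that is no member of a list and was chosen after its values were seen, had 6 reads in the triple mutant, against 27 and 76 in WT (exact binomial adjusted p = 0.0127 and 3.48e-06; limma adjusted p = 0.694).

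**Figure D3:**
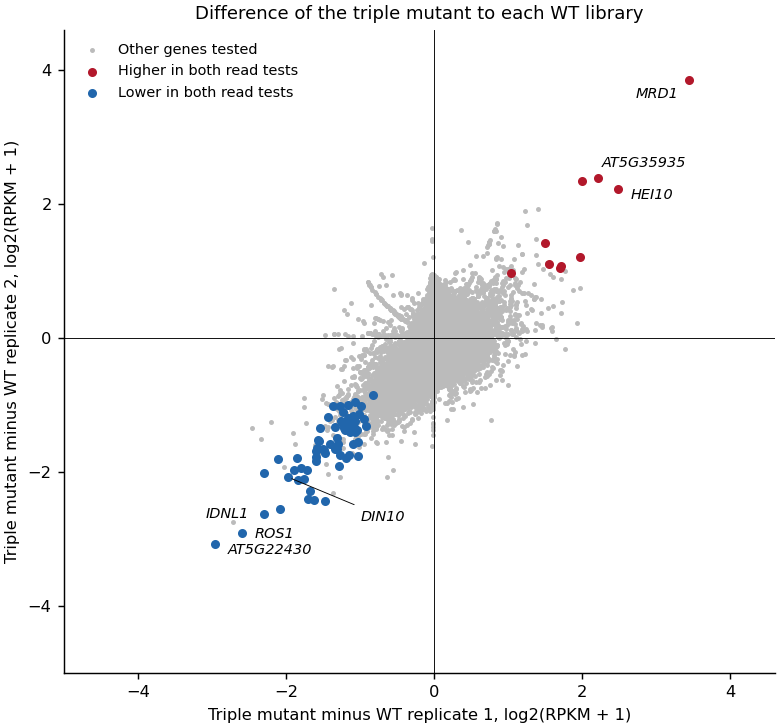
Difference of the triple mutant to WT replicate 1 (horizontal axis) and to WT replicate 2 (vertical axis) on the log2(RPKM + 1) scale for the tested genes, with the genes called in the same direction by both read tests in colour. MRD1 lies at 3.44 and 3.86 and IDNL1 at -2.30 and -2.63, and the called genes lie in the upper right and the lower left; both axes share the triple mutant library, so the points lean along the diagonal by construction.

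The list of RdDM machinery, which leaves out the IDN2 family and AGO3, held no call. Of 22 tested RdDM genes, among them the subunits of RNA polymerases IV and V and the Argonautes AGO4, AGO6 and AGO9, 0 rose and 0 fell by limma and by the read tests, and 0 had an unadjusted p under 0.05. Their median was -0.09, but 0.12 against WT replicate 1 and -0.31 against replicate 2, so it has no settled sign. AGO6, nearest to it, had 12 reads in the triple mutant, against 9 and 39 in WT. Of 10 tested genes of maintenance methylation, such as MET1 and CMT3, likewise 0 were called by either test and 0 had an unadjusted p under 0.05. Over all genes, limma called 0.3% and the read tests against each WT library 0.439%, so 0 calls in lists this short lie near those shares. CMT3, a methyltransferase of non-CG sites, had 5.78 RPKM in the triple mutant, against 6.24 and 7.43 RPKM in WT. Of the genes known to be silenced by methylation, 4 of 7 reached 1 RPKM in any library and were tested. MRD1, which did so through mutant libraries, was the 1 called, against 0.3% of all genes tested. With no filter MRD1 was the 1 called of 7. The list was chosen with earlier results of these data known, so these counts describe it and do not test it. SDC, an F-box gene silenced by RdDM, had 5 reads in the triple mutant, against 6 and 19 in WT, QQS had 3 against 7 and 22, and FWA had 0 reads in all 3 libraries.

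The stress, light and control lists held no call either in the main limma fit, which called 0.3% of all genes tested. They were the circadian clock (13 genes tested, median -0.13), salicylic acid defence (12, 0.01), rapid stress and touch (10, 0.05), heat shock (7, 0.01), photosynthesis (14, 0.43) and the control genes (7, 0.12), and the read tests called 0 of them as well. In other settings limma called members of some of these lists. In the salicylic acid list 1 gene rose with pseudocount 5, at least 5 RPKM, median-of-ratios scaling or quantile normalization. In the heat shock list 1 gene rose with median-of-ratios scaling, quantile normalization or 3 libraries in the fit. With median-of-ratios scaling 1 rapid stress gene fell. At an unadjusted limma p under 0.05 stood 1 clock gene, 2 salicylic acid genes, 1 rapid stress gene, 1 heat shock gene and 0 of the other lists. ACD6, a membrane protein of defence chosen after its values were seen, had 36.1 RPKM in the triple mutant, against 19.5 and 21.8 RPKM in WT, and did not pass limma (adjusted p = 0.0853). TCH3, a calmodulin-like gene, had 79.6 RPKM in the triple mutant, between the 87.1 and 71.0 RPKM of WT. The photosynthesis median was -0.03 against WT replicate 1 and 0.86 against replicate 2, so its size rests on replicate 2. PSAF, nearest that list's median, had 343 RPKM in the triple mutant, against 352 and 183 RPKM in WT. Members nearest the other medians were LUX, WRKY70, HSP90.1 and UBC21, with changes of -0.13, 0.03, 0.01 and 0.12.

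**Figure D4:**
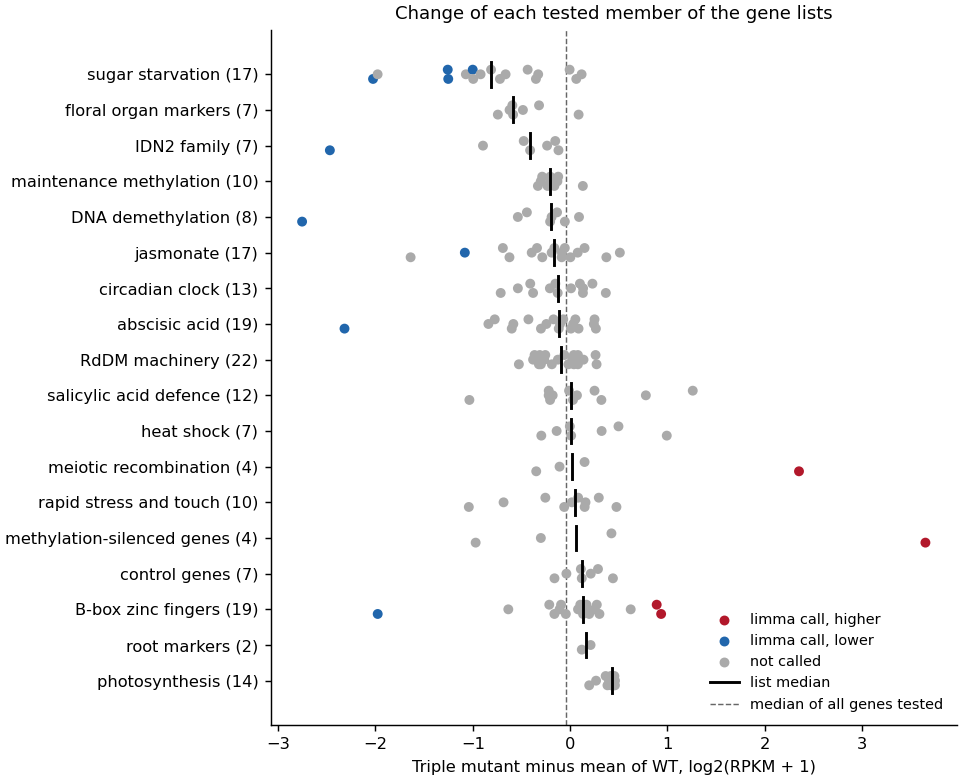
Change of each tested member of the gene lists in the triple mutant against the mean of WT (horizontal axis, log2(RPKM + 1)), with the number of tested members after each name. The sugar-starvation list has the lowest median, -0.81, against -0.05 for all genes tested (dashed line), while the photosynthesis genes sit together near 0.43.

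Markers of other organs were checked beside the falls. Floral organ identity genes, 7 of 7 tested, held 55 reads in all in the triple mutant, against 77 and 235 in WT, or summed levels of 7.33 RPKM in the triple mutant, against 10.7 and 14.2 RPKM in WT. None of the 7 was called, and 4 of them had the reads that both read tests ask for. Below both WT libraries lay 6 of the 7, against 39.2% of all genes tested. The median was -0.59, against -0.05 over all genes tested. It was -0.39 against WT replicate 1 alone and -0.69 against replicate 2 alone. SEP3, nearest to the floral median, had 3 reads in the triple mutant, against 7 and 21 in WT. No floral marker was at 0 reads in any of the 3 libraries. Beside this stood the fall of ACOS5, a fatty acyl-CoA synthetase of pollen wall formation, with 0 reads in the triple mutant, against 10 and 17 in WT (exact binomial adjusted p = 0.0428 and 0.0153; limma adjusted p = 0.569). AT5G22430, of a family named for a pollen protein, fell as well, and the part of floral tissue in either result was not tested. In bulk leaves fewer cells of a type and less RNA per cell cannot be told apart. The 5 root markers summed to 437 reads in the triple mutant, against 414 and 805 in WT, nearly all from PYK10, with 2 of them at 0 reads in the triple mutant and 3 and 2 in WT. The 5 seed markers summed to 1 read in the triple mutant, against 3 and 4 in WT, with 4 of them at 0 reads in the triple mutant and 3 and 3 in WT.

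By annotated class, protein-coding genes gave 11 rises and 49 falls among 20169 tested, pseudogenes 2 rises and 0 falls among 540, and small RNA genes 3 rises and 2 falls among 877. Over all genes tested 0.0715% rose and 0.228% fell. The 2 falls of small RNA genes were the snoRNA genes AT1G74456, with 1 read in the triple mutant, against 2 and 17 in WT, and AT4G39363, with 1 against 5 and 8. All 5 small RNA calls had under 10 reads in the triple mutant and WT replicate 1 together. Other RNA genes (253 tested) and genes not matched to the reference annotation (523) gave 0 calls by limma. Each chromosome held calls, with 2 rises and 11 falls among 5907 tested genes on chromosome 1 and 3 and 10 among 3460 on chromosome 2. There were 4 and 13 among 4484 on chromosome 3, 4 and 8 among 3329 on chromosome 4, and 3 and 9 among 5182 on chromosome 5. MRD1 and HEI10 were the only pair of limma calls within 10 kb of each other.

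The triple mutant was also set beside the mutants it combines, by read tests chosen after the main results were seen. Each compares 1 library with 1 library. Against idn2, of like depth (2884772 reads), 301 of 18512 genes differed (1.63%), 227 higher (1.23%) and 74 lower (0.4%) in the triple mutant. Of the 67 limma calls 60 could be tested there and 16 were called. MRD1 had 63 reads in the triple mutant, against 7 in idn2, a ratio of 9.29 (exact binomial adjusted p = 1.3e-10). HEI10 had 81 in the triple mutant, against 16 in idn2, AT2G04460 had 20 against 2, and AT3G09870 had 59 against 7. These were all 4 of the rises that were called, each higher in the triple mutant than in idn2. AT5G35935, with 85 reads in the triple mutant, against 91 in idn2, was not among them. Of the falls 9 were lower in the triple mutant than in idn2, among them IDNL1 with 1 read, against 50, and AT5G22430 with 6, against 26 (ratio 0.238, exact binomial adjusted p = 0.0152). A further 3 falls were higher in the triple mutant than in idn2. BT2 had 150 reads in the triple mutant, against 5 in idn2 (ratio 31.0, exact binomial adjusted p = 1.71e-36), AT3G15450 had 143 against 48, and BAM5 had 87 against 44. ROS1, with 16 reads in the triple mutant, against 23 in idn2, was not called.

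Against the double mutant, a library of the depth of WT replicate 2 (5819494 reads), 370 of 19330 genes differed (1.91%), 3 higher (0.0155%) and 367 lower (1.9%) in the triple mutant. Of the 67 limma calls 64 could be tested and 5 were called, all of them falls that were lower in the triple mutant. ROS1 had 16 reads in the triple mutant, against 101 in the double mutant (ratio 0.330, exact binomial adjusted p = 8.26e-05). AT3G15630 had 25 in the triple mutant, against 121 in the double mutant (ratio 0.430, adjusted p = 0.000598 by the same exact test). The others were AT1G49032, uncharacterized, with 17 reads against 111, AT3G61900 with 0 against 22, and AT4G26290 with 0 against 25. Depth and the added idn2-1 allele cannot be told apart in these 5. MRD1, HEI10, AT5G35935, AT5G22430, DIN10 and BXL1 were not called between the triple and the double mutant.

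The named calls were also read out in the remaining mutant libraries. IDNL1 had 6 reads in the double mutant, against its 1 in the triple mutant, while idn2 and nrpe1 had 50 and 54. Of the rises, MRD1 had 33 reads in nrpe1 and 165 in the double mutant, HEI10 52 and 214, AT5G35935 89 and 260, AT2G04460 25 and 33, and AT3G09870 3 and 103. AT3G09870 thus lay below both WT libraries in nrpe1 and idn2 per total and above both in the triple and double mutants. AT4G12490 had 51 reads in the triple mutant, 132 in the double mutant, 81 in idn2 and 17 in nrpe1. AT5G22430 stood apart in nrpe1, with 174 reads there, 10 in the double mutant and 26 in idn2. DIN10 had 119 reads in the triple mutant, 279 in the double mutant, 82 in idn2 and 215 in nrpe1, and BXL1 had 233, 523, 291 and 374 in the same order. Every mutant library lay below both WT libraries per total for these 2 genes, and all these comparisons share the WT libraries. PYL6 had 15 reads in the double mutant, 7 in idn2 and 10 in nrpe1, and BBX17 had 66, 25 and 38.

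**Figure D5:**
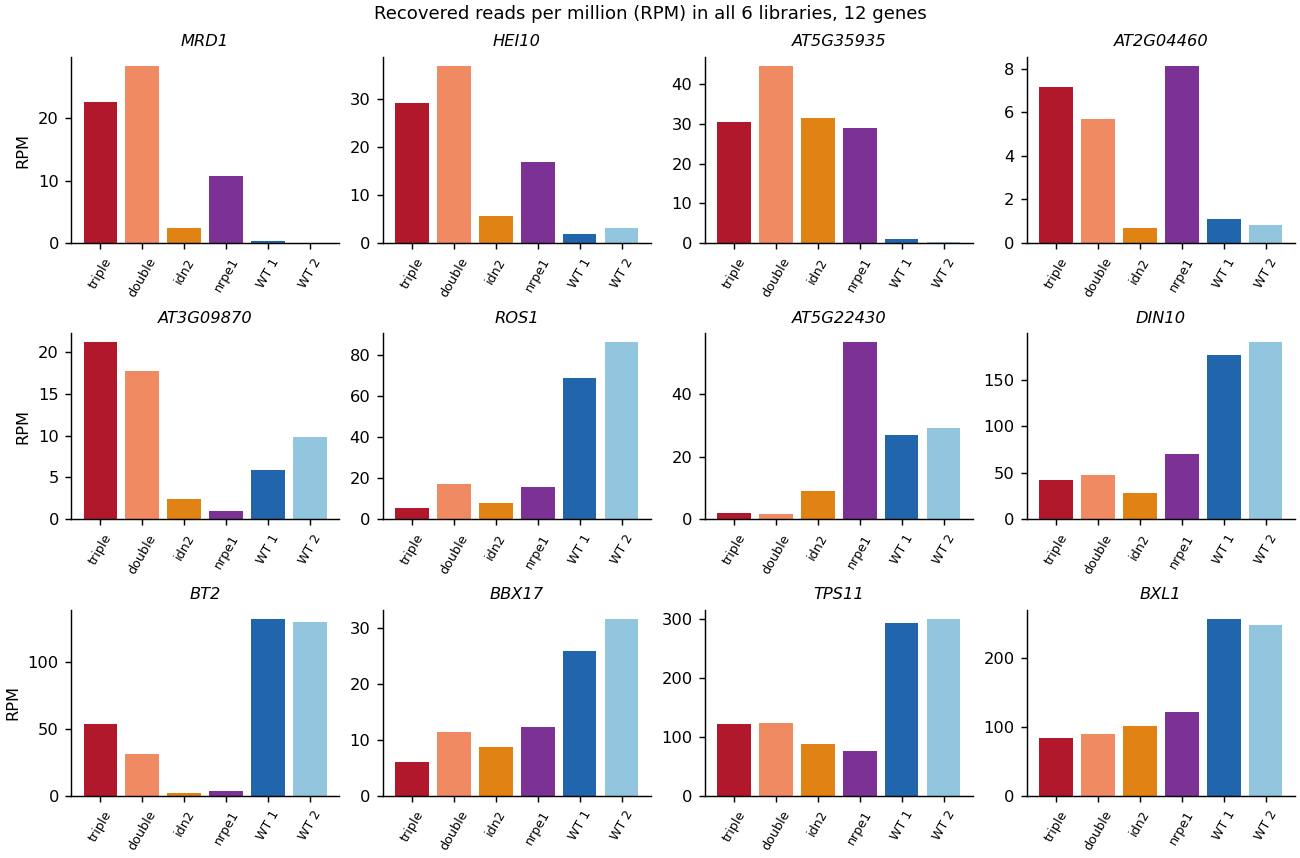
Recovered reads as a share of each library's total (vertical axis, RPM, from 0) of 12 genes in all 6 libraries, 1 bar a library, with the triple mutant at the left and WT at the right of each panel. MRD1, HEI10 and AT3G09870 are high in the triple and double mutants and low in idn2, BT2 is lowest in idn2 and nrpe1, and AT5G22430 is highest in nrpe1.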

How the data were processed

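The authors deposited RPKM for 32947 genes in each of 6 libraries, with TAIR8 gene models per the file headers and Bowtie named, without a version, in the submitters' processing notes. No source used here says how repeated, duplicate or antisense reads were treated. In each library 100% of values, times the gene's span, were whole multiples of 1 step (tolerance 1e-06 steps) and the lowest multiple was 1, so 1 added read per gene was taken off wherever reads are given. Positions are TAIR8, with 1 added to the deposited starts and stops. Gene symbols and classes came from TAIR10.1 by gene ID (32377 matched, 570 not). Of all genes 3510 overlap another, and their reads cannot be separated. Promoter motifs were not analysed here.

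The main fit was limma 3.58.1 in R 4.3.3 on log2(RPKM + 1), a scale that understates changes of low genes, with a mean per genotype over 6 libraries and an intensity trend, on genes reaching 1 RPKM in any library. With 1 residual degree of freedom and an infinite prior, each p uses the trend and not the gene's own spread. The lone triple mutant library is taken to vary like the WT pair. The fit was also run on simulated counts, with the same spread for every gene and no shift between libraries beyond depth. That run therefore cannot vouch for the calls in these data. A size rule, with no model, took genes 2-fold or more outside both WT libraries on the RPKM + 1 scale. Read tests were exact two-sided binomial tests in scipy 1.17.1 with expected shares from read totals, at least 10 reads in the 2 libraries, Benjamini-Hochberg adjusted p under 0.05 and at least 2-fold. Ratios are of reads per total with exact 95% intervals, and a gene with 0 reads in a library was set at a floor of 3 reads per library. Intervals and floors cover counting error only. In a 2 kb gene 1 read equals 0.177 RPKM in the triple mutant, against 0.180 and 0.0832 RPKM in WT.

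The lists (19, with 224 genes, all measured) and the genes described were chosen with earlier results of these data known. Named were up to 15 genes per direction past both limma and the size rule, in order of distance to the nearer WT library; up to 15 per direction called in both read tests, ranked by the smaller fold; the mutated genes; and listed genes that were called or lay nearest their list's median, of which 1 is not reported here. Other names were chosen after their values were seen. Python 3.11.15, numpy 2.4.6, pandas 2.3.3 and matplotlib 3.10.9 were used for tables and figures. Alternatives were other pseudocounts, filters, scalings, voom on reads, the 3 libraries alone, and each WT library left out.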

Additional observations from a re-analysis of the deposited data

How the results depend on the processing

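The limma count of 67 genes became 339 with median-of-ratios scaling (106 higher, 233 lower), 103 with quantile normalization and 170 with the added read removed, an alternative chosen after seeing the data; the other settings gave 45 (voom) to 87 (3 libraries in the fit). Single calls were not followed under the filter of at least 5 RPKM or the fit on genes that overlap no other gene. Of the 67 calls 19 were kept in every other setting that tested them, among them MRD1, ROS1, AT5G22430, DIN10, TPS11, TPS8, STP1, BXL1, BAM5 and BBX17. The other 48 were lost in at least 1 of the settings followed, 40 of them with voom. IDNL1, HEI10, PYL6, AT5G35935 and BBX29 lost their call with no filter, AT2G04460 with 3 libraries in the fit, BT2 with pseudocount 0.5 or the added read removed, and BBX31 and VSP1 with voom. No named gene changed direction. List medians near 0 did change sign, with the median of all genes at 0.05 with median-of-ratios scaling, 0.02 with quantile normalization and 0.03 with no filter, against -0.05, and that of the clock list at 0.01 with at least 5 RPKM. The medians of the salicylic acid, rapid stress, meiotic and methylation-silenced lists also changed sign in at least 1 setting. The size rule gave 283 genes with pseudocount 0.5 and 31 with pseudocount 5, against 159, and 345 to 459 with 1 WT library left out; without WT replicate 2, 38.0% were higher, against 16.4% with both. Of the read tests, the 620 calls against WT replicate 2 became 394 with median-of-ratios scaling (30.7% higher, against 3.23%) and the 221 between the WT libraries 122 (40.2% higher in replicate 2, against 98.6%). Without a minimum fold the counts were 402 against WT replicate 1, 4832 against WT replicate 2, 317 against each (28.4% higher, against 12.3%) and 3017 between the WT libraries. The causes of these shifts were not tested. No paired analysis was made, because the sample labels give no pairing of the triple mutant library with a WT library. Without either WT library limma has no residual degree of freedom, so only the size rule was recomputed there. Depth limits genes under 10 reads, and 1 triple mutant library leaves the spread within that genotype unmeasured.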

Other observations

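Single genes on no list were also looked at, all picked after their values were seen, and they make no tested group. Among xyloglucan-modifying enzymes, which loosen or rebuild the wall, XTH18 had 15 reads in the triple mutant, against 44 and 122 in WT, XTH33 had 7 against 26 and 67, and XTR6 had 41 against 91 and 208. All 3 were called against each WT library by the exact binomial test and none by limma. Of 2 beta-galactosidase genes called in the same way, BGAL4 had 25 reads in the triple mutant, against 66 and 189 in WT, and BGAL17 had 19 against 45 and 101. HPL1 and CHAT are genes known from the synthesis of green leaf volatiles, for a lyase of the aldehyde step and an acetyltransferase of the hexenyl acetate step. Whether either enzyme is active in these plants was not tested. HPL1 had 22 reads in the triple mutant, against 70 and 151 in WT, and CHAT had 34 against 82 and 203 (limma adjusted p = 0.0392 for CHAT and 1 for HPL1).

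Further genes were picked in the same way. CYP81F2, a cytochrome P450 of indole glucosinolate metabolism, had 22 reads in the triple mutant, against 68 and 170 in WT, and the myrosinase-binding protein gene MBP2 had 56 against 140 and 336. Both were called against each WT library by the exact binomial test and not by limma (adjusted p = 0.506 for CYP81F2 and 0.0853 for MBP2). The jacalin-related lectin JAL23 had 15.4 RPKM in the triple mutant, against 35.8 and 37.4 RPKM in WT (-1.20, limma adjusted p = 0.000816). UGT74F2, which attaches glucose to salicylic acid, had 9.68 RPKM in the triple mutant, against 25.5 and 32.8 RPKM in WT (-1.49, limma adjusted p = 0.000211). In JAL23 and UGT74F2 the triple mutant library lay more than 2-fold below each WT library. BBX27, a B-box gene outside the list, fell as BBX17 did, with 9.72 RPKM in the triple mutant, against 18.7 and 25.2 RPKM in WT (-1.09, limma adjusted p = 0.0146).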
